A study of Rattus norvegicus and Mus musculus with 34 samples.

Results

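The effect of sensory nerve transection that the 3 healing times have in common was examined in bone defects of the rat mandible. All 23 rat samples of the series, of 34 samples in all, were used, 11 with an intact nerve (sensory nerve+ group) and 12 with a transected nerve (sensory nerve− group). Each sample was the healing tissue of a periodontal bone defect in a wild-type rat. On day 3 there were 3 sensory nerve+ and 4 sensory nerve− samples, and on day 7 and on day 14 there were 4 of each. The rats were male Sprague-Dawley rats of 6 to 8 weeks, every rat carried the defect and received penicillin, and in the sensory nerve− group a segment of the inferior alveolar nerve was removed in the same operation. The methods describe no sham exposure of the nerve in the sensory nerve+ group. Transection and day were fitted together, so that 1 coefficient per gene gives the difference that remains when each rat is compared with rats of its own day.

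The inferior alveolar nerve carries sensation from the lower teeth and jaw, and its peptide-containing axons release calcitonin gene-related peptide (CGRP), which is made from Calca and Calcb and acts on the receptor CALCRL with RAMP1. Bone defects heal through a clot and inflammation with macrophages, then new bone from osteoblasts, which is remodelled by osteoclasts. Osteoclasts are made by fusion of cells of the macrophage lineage under M-CSF, which binds CSF1R, and RANKL, which binds RANK. They seal off a patch of bone, acidify it with a proton pump and a chloride channel and digest its collagen with cathepsin K.

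Library totals ranged from 14854598 to 18742423 counts (median 17783000), and hemoglobin genes took from 0.263% to 50.1% of them. The most hemoglobin was in rat 3 of the sensory nerve− group on day 14. Tissue other than healing bone also differed between rats of the same group. Summed over 12 enamel and dentin genes, the level ran from 7.32 to 23267 CPM (counts scaled to a common library size, with TMM factors, the trimmed mean of M values) across the intact rats of day 3, and that of 28 skeletal muscle genes ran from 469 to 50732 CPM across those of day 14. Osteoblast genes summed to at least 14668 CPM and osteoclast genes to at least 1037 CPM in every rat. Other cells share some of these genes, such as Spp1, so the sums do not show how many bone cells a sample held. The 4 sensory nerve− rats of day 7 were deposited in a table of their own. A difference between the tables and the transection cannot be told apart on day 7, whereas the rats of days 3 and 14 share 1 table.

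No single gene differed beyond the spread between rats after correction. Among 15858 tested genes, the adjusted p was under 0.05 for 0 genes in either direction (edgeR's quasi-likelihood test, Benjamini-Hochberg adjustment), and the smallest adjusted p was 0.860. At an unadjusted p under 0.05 there were 811 genes (5.11% of those tested), of which 496 (3.13%) were higher and 315 (1.99%) were lower after transection. Scaled by library totals alone, 54 were higher and 538 lower, and the median log2 fold change of all genes was −0.16 in place of 0.00. The count of 811 also depended on single rats. It was 442 without rat 4 and 1838 without rat 1 of the sensory nerve− group on day 7, 520 without rat 4 of the sensory nerve− group on day 14, and 1360 without rat 2 of the sensory nerve+ group on day 14. It was 1275 without rat 1 of the sensory nerve+ group and 1293 without rat 3 of the sensory nerve− group on day 3.

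The direction of the difference was the same on all 3 days for 4313 genes (27.2% of those tested), 2452 of them higher (15.5%) and 1861 lower (11.7%) after transection. Genes with 1 direction on 2 of the days and the other on the remaining day ran from 1013 to 2409 per pattern. Across genes, the log2 fold changes of day 3 and day 7 had a Pearson r of 0.18, those of day 7 and day 14 an r of 0.11, and those of day 3 and day 14 an r of −0.27. The genes are not independent replicates, and the rats of different days are different animals. Of the 811 genes at an unadjusted p under 0.05, 715 (88.2%) had 1 direction on all 3 days (453 higher, 2.86% of the genes tested, and 262 lower, 1.65%), which the pooled coefficient favours by its construction. On single days, the groups did not overlap for 267 genes on day 3 (1.68%), 133 on day 7 (0.839%) and 525 on day 14 (3.31%), and on each of the 3 days for 0 genes. On at least 2 days, 1 gene was higher in every transected rat (0.00631%) and 5 were lower (0.0315%). They are named here after their values were seen, and the number that chance alone would give was not computed. Ap3m1, a subunit of the AP-3 adaptor that sorts proteins to lysosomes, was the higher one (log2 fold change 0.15 ± 0.05 SE), and Hdgf, Fam174b, Pnma2, Necab2 and Rnase17 were the lower ones, with log2 fold changes of −0.19, −0.60, −1.14, −1.14 and −2.76.

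**Figure D1:**
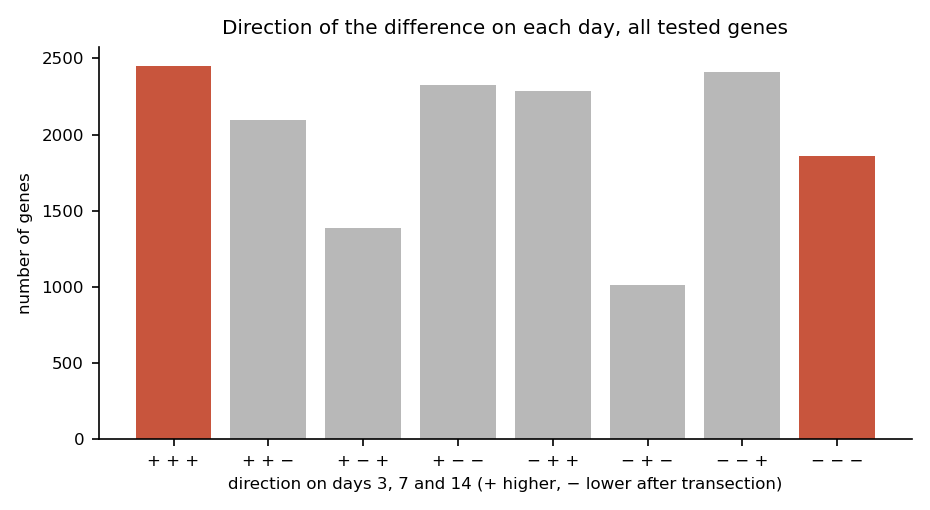
Number of genes (vertical axis) with each combination of directions on days 3, 7 and 14 (horizontal axis), over the tested genes with a difference on each day. The coloured bars are the 2452 genes higher and the 1861 genes lower after transection on all 3 days.

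Genes of osteoclasts had log2 fold changes above 0 after transection, and 0 of them passed the adjusted threshold. All 18 tested genes of the osteoclast list were above 0 in the pooled fit, against 51.2% of all genes, and 12 were at an unadjusted p under 0.05, against 3.13% of all genes. Their median log2 fold change was 0.85, against 0.00 for all genes, and 15 of the 18 were higher on all 3 days. The median was 0.21 on day 3, 0.89 on day 7 and 1.44 on day 14. Dcstamp, which is needed for fusion, was missing from the deposited counts under this symbol and could not be tested. In tissue samples, more osteoclasts, more RNA per osteoclast and more bone tissue in a sample cannot be told apart. On day 14 the mean log2 level of osteoclast genes in transected rats 1 to 4 was 6.85, 7.13, 5.32 and 7.55. That of osteoblast genes was 7.06, 7.90, 5.89 and 7.14. The median log2 fold change of osteoblast genes was 1.08 on day 14 but −0.70 on day 7. The part of bone tissue in the osteoclast values was not tested.

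Clcn7 and Tcirg1, which act in acidification, had the smallest p of the list. Clcn7 encodes the chloride-proton exchanger of the ruffled border. Its level in the sensory nerve+ group was 69.2, 65.3 and 111 CPM on day 3, 162, 105, 58.5 and 127 CPM on day 7, and 75.6, 90.7, 81.3 and 77.4 CPM on day 14. In the sensory nerve− group it was 128, 103, 67.3 and 96.4 CPM on day 3, 65.2, 130, 212 and 318 CPM on day 7, and 165, 193, 64.6 and 278 CPM on day 14. The groups overlapped on each day, and on days 7 and 14 a single transected rat (rat 1 on day 7, rat 3 on day 14) lay below most intact rats. The log2 fold change of Clcn7 was 0.71 ± 0.25 SE (1.63-fold). Tcirg1, a subunit of the proton pump, ranged from 91.6 to 323 CPM (median 179) in intact and from 102 to 784 CPM (median 287) in transected rats, with a log2 fold change of 0.85 ± 0.31. Ostm1, the partner of CLCN7, was higher by 0.44 ± 0.19 and Atp6v0d2, another subunit of the pump, by 1.08 ± 0.52.

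The promoter of Clcn7 is shown beside that of Ctsd, the lysosomal protease with the smallest p of the protease list, because both hold the E-box CACGTG, the letters bound by MITF and its relatives, which act in osteoclasts and on lysosomal genes. The motif reads the same on both strands and stands in capitals. Each run is the 250 bases before the annotated start from RefSeq (GRCr8, whereas the reads were aligned to mRatBN7.2), at chr10:14656011-14656260 on the plus strand for Clcn7 and at chr1:206968822-206969071 on the minus strand for Ctsd.
Clcn7: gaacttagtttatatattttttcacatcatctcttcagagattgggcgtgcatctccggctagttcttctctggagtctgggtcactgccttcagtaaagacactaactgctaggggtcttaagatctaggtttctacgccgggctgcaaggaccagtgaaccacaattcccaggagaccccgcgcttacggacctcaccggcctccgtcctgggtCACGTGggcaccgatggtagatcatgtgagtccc
Ctsd: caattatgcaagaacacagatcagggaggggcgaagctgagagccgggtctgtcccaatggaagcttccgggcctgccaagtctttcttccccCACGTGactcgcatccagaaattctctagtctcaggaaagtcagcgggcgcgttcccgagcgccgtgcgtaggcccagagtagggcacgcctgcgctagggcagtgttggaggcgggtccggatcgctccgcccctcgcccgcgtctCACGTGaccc
The motif begins 34 bases before the start in Clcn7 and 157 and 10 bases before it in Ctsd. It was found in 1 of 11 promoters at hand for the osteoclast list and in 2 of 16 for the protease list. For all tested genes it was found in 966 of 12739 (7.58%). For the 12 leading genes in each direction described below, it was in 0 of 8 promoters of higher genes. Among the lower genes it was in 1 of 9, that of Igf1r. These shares are a description of the windows only.

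Genes that act in resorption and in osteoclast identity had larger log2 fold changes and larger errors. Acp5, the tartrate-resistant acid phosphatase by which osteoclasts are stained, ranged from 103 to 839 CPM (median 361) in intact and from 81.4 to 3113 CPM (median 621) in transected rats, with a log2 fold change of 1.23 ± 0.53. By day its log2 fold change was 0.24, 1.20 and 2.14. Ctsk, cathepsin K, ranged from 156 to 2559 CPM (median 1363) and from 419 to 10920.3 CPM (median 1895), with a log2 fold change of 1.15 ± 0.48. On day 14, 3 of the 4 transected rats were above all intact rats in both genes, and rat 3 was below them all. Mmp9 was higher by 1.11 ± 0.52, Itgb3, the integrin subunit of the sealing zone, by 1.08 ± 0.44, and Siglec15, a receptor in fusion, by 1.33 ± 0.54.

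Regulators of osteoclast formation followed. Tnfrsf11a, which encodes RANK, ranged from 9.45 to 53.5 CPM (median 15.2) in intact and from 9.5 to 73.4 CPM (median 38.5) in transected rats, with a log2 fold change of 0.88 ± 0.34. Nfatc1, the transcription factor that RANKL induces, was higher by 0.51 ± 0.21 and Src by 0.56 ± 0.23. Calcr, the calcitonin receptor of mature osteoclasts, gave 1.23 ± 0.60. Oscar, Traf6 and Car2 were the tested members without 1 direction, with log2 fold changes on day 3 of −0.13, −0.03 and −0.05.

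**Figure D2:**
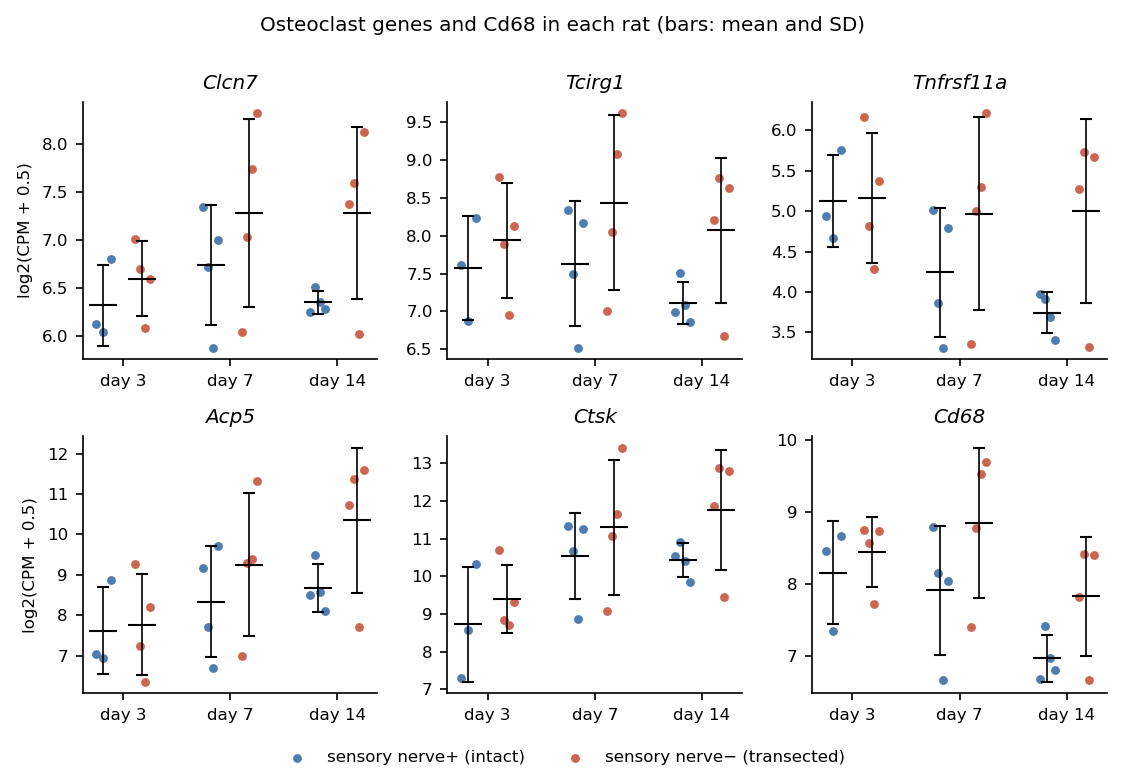
Level of 5 osteoclast genes and of Cd68 in each rat by day, as log2(CPM + 0.5), with intact rats in blue and transected rats in red. Points are rats and black bars are the mean and SD of a group. On day 14, 3 of the 4 transected rats lie above the intact rats in Acp5 and the fourth lies below them.

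The osteoclast count rested on part of the rats. It was 4 of 18 without rat 1 of the sensory nerve− group of day 3, 4 without rat 4 of the sensory nerve− group of day 7, 4 on days 3 and 14 alone, 0 on days 3 and 7 alone and 14 on days 7 and 14 alone. The median stayed above 0 in all of these, from 0.53 on days 3 and 7 to 1.10 on days 7 and 14, and from 0.68 to 1.02 with 1 rat left out.

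Of the 7 genes of the RANKL, OPG and M-CSF axis, 5 were higher, with a median of 0.40. At an unadjusted p under 0.05, 2 of the 7 were higher (28.6%), against 3.13% of all genes. Besides Tnfrsf11a this was Csf1r, the M-CSF receptor, with a range of 122 to 661 CPM (median 337) in intact and of 156 to 870 CPM (median 594) in transected rats and a log2 fold change of 0.60 ± 0.28. It was 0.03 on day 3. The ligands had wide errors. Tnfsf11, which encodes RANKL, gave 0.57 ± 0.37 and Csf1, which encodes M-CSF, gave 0.40 ± 0.21. Tnfrsf11b, the decoy receptor OPG, gave 0.03 ± 0.29.

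Macrophage genes were above 0 in 22 of 24, with a median of 0.36, but 8 were higher on all 3 days. Of the 24, 3 were higher at an unadjusted p under 0.05 (12.5%), against 3.13% of all genes. The count of 3 was 1 without any 1 of 10 rats, of both groups, and 7 without rat 1 of the sensory nerve+ group on day 3 or rat 1 of the sensory nerve− group on day 7, and it was 0 on days 3 and 7 alone and 9 with limma-voom. Their median was −0.11 on day 3, 0.72 on day 7 and 0.43 on day 14. Cd68, a glycoprotein of macrophage and osteoclast lysosomes, had the smallest p. It was 353, 162 and 407 CPM in intact and 430, 380, 212 and 428 CPM in transected rats of day 3. On day 7 it was 443, 286, 101 and 265 CPM against 170, 438, 741 and 834 CPM, and on day 14 it was 102, 171, 125 and 112 CPM against 227, 343, 101 and 340 CPM. The groups overlapped on each day, on day 14 through rat 3 of the transected group alone. The log2 fold change was 0.76 ± 0.28. Cd86, a costimulatory ligand, gave 0.46 ± 0.22. C1qa, C1qb and C1qc gave 0.16, 0.22 and 0.12 for the subunits of complement C1q, and Cd163, a scavenger receptor of resident macrophages, gave −0.01.

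Of 22 metalloproteinases, cathepsins and their inhibitors, 20 were higher, with a median of 0.41, and 14 were higher on all 3 days. At an unadjusted p under 0.05, 5 of the 22 were higher (22.7%), against 3.13% of all genes. On day 3 all 22 were above 0. Ctsd and Ctsb, lysosomal cathepsins of many cells, had the smallest p. Ctsb ranged from 909 to 4473 CPM (median 1839) in intact and from 1475 to 5241 CPM (median 2449) in transected rats, with a log2 fold change of 0.63 ± 0.23, and on day 14 each transected rat was above each intact rat. Ctsd ranged from 366 to 2079.9 CPM (median 883) and from 570 to 2876 CPM (median 1429), with a log2 fold change of 0.65 ± 0.22. Ctsz gave 0.85 ± 0.35, and Ctsk and Mmp9 stand in this list too. The collagenase Mmp13 gave 1.09 ± 0.55, and the gelatinase Mmp2 gave 0.08. The count of 5 was 11 without rat 1 and 2 without rat 4 of the sensory nerve− group on day 7.

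Genes of lymphocytes were higher in 20 of 21, with a median of 0.40. Of the 21, 3 were higher at an unadjusted p under 0.05 (14.3%), against 3.13% of all genes. The coreceptor genes of T cells were those 3. Cd8b gave 0.79 ± 0.31, Cd8a gave 0.77 ± 0.33 and Cd4 gave 0.55 ± 0.24, and each was higher on all 3 days. Cd3d, Cd3e and Cd3g, signalling subunits of the T cell receptor complex, gave 0.25, 0.26 and 0.33 and were lower on days 3 and 7. Cd8b ranged from 1.8 to 16 CPM (median 8.3) in intact and from 4.45 to 27.4 CPM (median 12.3) in transected rats. The list's median was 0.02 on day 3, 0.11 on day 7 and 1.22 on day 14. On days 3 and 7 alone it was 0.03 with 0 genes at an unadjusted p under 0.05, and with 1 rat left out it ran from 0.22 to 0.69. The count of 3 was 1 without rat 1 or rat 3 of the sensory nerve+ group on day 14, without rat 1 of the sensory nerve− group on day 14 or without rat 4 of that group on day 7. Red cell genes moved with this list on day 14 (18 of 19 higher, median 1.41), when hemoglobin took from 1.38% to 20.2% of the counts in intact and 26.8%, 0.263%, 50.1% and 32.4% in transected rats. Their part in the result was not tested.

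Among genes with 1 direction on all 3 days, those with the smallest p that were higher had differences of less than 1 on the log2 scale. Tecpr1, which tethers autophagosomes to lysosomes, came first. It was 76.3, 72.1 and 91.3 CPM in intact and 82.3, 97.9, 102 and 88.6 CPM in transected rats of day 3. On day 7 it was 103, 87.8, 92.6 and 74 CPM against 84, 107, 154 and 144 CPM, and on day 14 it was 59.5, 55.1, 69.7 and 54.9 CPM against 86.5, 105, 81.3 and 111 CPM. The groups overlapped on days 3 and 7 and did not on day 14. The log2 fold change was 0.46 ± 0.10 (adjusted p = 0.860 in edgeR, as for the 24 leading genes in either direction). Several of the next genes encode enzymes of the lysosome. Hexa, which takes part in the breakdown of gangliosides, gave 0.48 ± 0.14. Dpp7, a dipeptidase, gave 0.59 ± 0.16 and Dnase2, the acid DNase that degrades DNA of engulfed cells, gave 0.64 ± 0.19. No list of lysosomal genes was compared with the other genes.

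Itga2, the collagen-binding integrin subunit, had the largest difference of the 12 leading genes, 0.91 ± 0.27, with 11.4, 10.6, 11.9 and 9.63 CPM against 29.9, 31.3, 15.7 and 50 CPM on day 14. Sema7a, a membrane-bound semaphorin with roles in axon growth and in immune cells, gave 0.48 ± 0.14, with 0.47, 0.42 and 0.54 by day. The remaining higher genes were Rasa4, a Ras GTPase-activating protein, at 0.74 ± 0.22, the potassium channel subunit Kcns3 at 0.65 ± 0.20, Sh3bgrl2 at 0.50 ± 0.15, Txndc16 at 0.47 ± 0.13 and Smug1, a uracil-DNA glycosylase, at 0.32 ± 0.09. For Sh3bgrl2 and Kcns3 the difference itself varied with the day at an unadjusted p of 0.0178 and 0.0303.

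**Figure D3:**
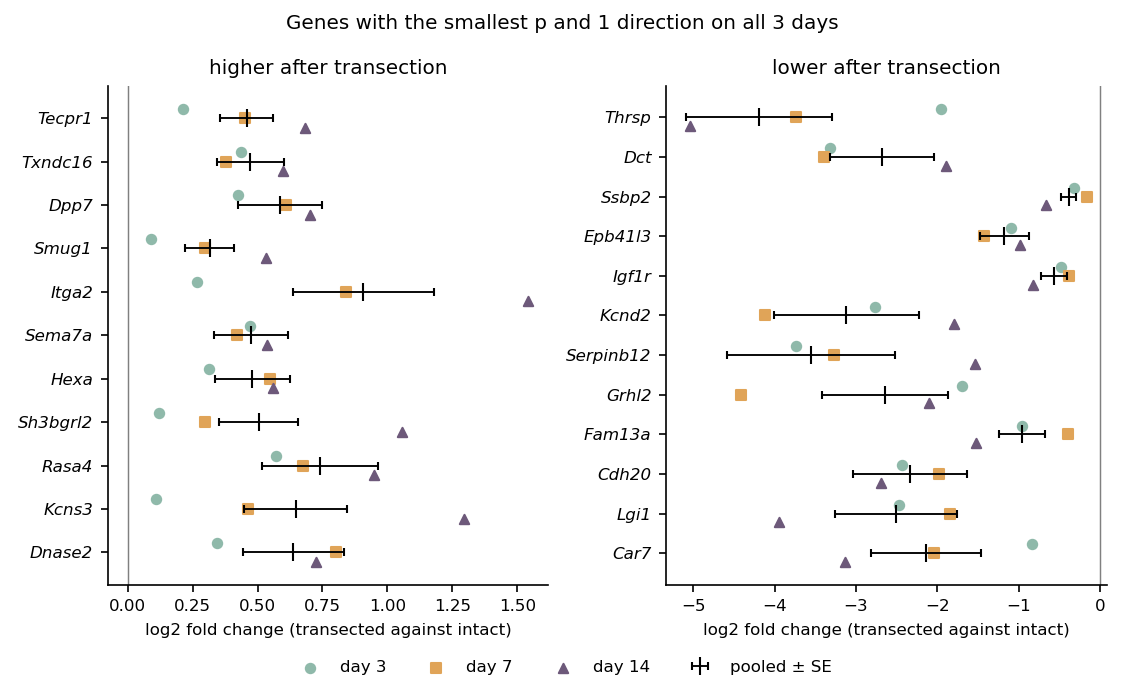
Log2 fold change of transected against intact rats (horizontal axis) for 11 of the 12 genes with the smallest p that were higher (left) and the 12 that were lower (right) on all 3 days. Symbols are the values of each day and the black mark with its bar is the pooled value ± SE. The genes on the left lie between 0.32 and 0.91, and those on the right run from −0.38 to −4.19.

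The lower genes with the smallest p were either genes of moderate level or genes of few counts that a few intact rats carried. Epb41l3, a membrane skeleton protein of neurons and epithelia, was of moderate level. It was 31.7, 72.9 and 39.5 CPM in intact and 4.53, 30.3, 39 and 16 CPM in transected rats of day 3, 19, 21.9, 80.9 and 18.3 CPM against 15.3, 14.1, 12 and 10.6 CPM on day 7, and 18.8, 6.66, 16.4 and 16.3 CPM against 7.28, 8.68, 7.29 and 6.11 CPM on day 14. The groups did not overlap on day 7, and on day 14 1 intact rat reached into the transected range. The log2 fold change was −1.18 ± 0.30. Igf1r, the receptor of insulin-like growth factor 1, ranged from 15.3 to 51.9 CPM (median 25.6) in intact and from 9.3 to 37.6 CPM (median 21) in transected rats. Its log2 fold change was −0.56 ± 0.16, and on day 14 every transected rat was below every intact rat. Ssbp2, a single-stranded DNA binding cofactor of LIM factors, gave −0.38 ± 0.09, with −0.31, −0.16 and −0.66 by day, and Fam13a gave −0.95 ± 0.28, with −0.96, −0.39 and −1.52 by day.

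Thrsp, which encodes the thyroid hormone responsive Spot 14 protein of fat synthesis, had the smallest p of all genes tested (log2 fold change −4.19 ± 0.90). Its level was at most 0.143 CPM in all rats of day 3. On day 7 it was 5.44, 6.87, 1.58 and 117 CPM in intact and 6.92, 0.705, 1.03 and 1.16 CPM in transected rats, and on day 14 it was 1.75, 0.501, 20.4 and 34.6 CPM against 0.164, 0.507, 0.883 and 0.185 CPM. The groups overlapped on each day, and 3 intact rats (rat 4 of day 7, rats 3 and 4 of day 14) carried most of the signal. DESeq2 called this gene lower with an adjusted p of 0.00555, as the only gene of that fit. The adipocyte list gave a median of 0.03 over its 9 tested genes, with Adipoq, Lep and Pck1 too low to be tested. The part of fat tissue in the value of Thrsp was not tested.

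The remaining lower genes had few counts. Dct, a melanocyte enzyme, was at most 1.03 CPM, with 0.262, 0.381 and 1.03 CPM in intact and 0, 0.142, 0.0466 and 0 CPM in transected rats of day 3, the day on which its groups did not overlap. Kcnd2, Serpinb12 and Grhl2 were highest in the same few intact rats. Grhl2, a transcription factor of epithelia, was 4.19 and 2.93 CPM in rats 2 and 3 of day 3 and 3.68 CPM in rat 3 of day 7 and at most 1.4 CPM in any transected rat. Its log2 fold change was −2.64 ± 0.78, and −1.73 without rat 3 of day 7. Kcnd2, a potassium channel, was 5.81 CPM in rat 2 of day 3 and 10.3 CPM in rat 3 of day 7. Serpinb12 was 0.952 and 5.08 CPM in intact rats 2 and 3 of day 3 and 0.559 CPM in transected rat 3 of that day. Its only counts on day 7 were 5 in intact rat 3, and on day 14 it had 1 count, in intact rat 2. Its direction on days 7 and 14 thus rested on a single rat each. Lgi1, a secreted protein of synapses and myelinated nerve, gave −2.51 ± 0.75, Cdh20 gave −2.34 ± 0.70 and Car7 gave −2.14 ± 0.68, with medians of 0.975, 1.09 and 0.343 CPM in intact rats.

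Epithelial genes were high in intact rats 2 and 3 of day 3 and intact rat 3 of day 7 (mean log2 level 4.69, 3.70 and 3.57). They were also high in rats 2 and 3 of the sensory nerve− group on day 3 (3.34 and 4.01), with 2.42 in rat 1. Of 14 tested keratin and epithelial genes, 12 were lower after transection, 6 at an unadjusted p under 0.05, against 1.99% of all genes, and 9 were lower on all 3 days. The median was −1.32, with −0.88 on day 3, −1.97 on day 7 and −0.41 on day 14. Cdh1, which encodes E-cadherin, was 1.18, 109 and 41.5 CPM in intact and 5.51, 21.8, 33.8 and 1.87 CPM in transected rats of day 3. On day 7 it was 0.539, 1.25, 48.4 and 0.678 CPM against 0.337, 1.73, 1.37 and 1.74 CPM, and on day 14 it was 6.45, 17, 2.41 and 5.73 CPM against 2.78, 2.71, 3.53 and 2.59 CPM. The difference of day 7 came from 1 intact rat, and on day 14 the groups overlapped by 1 intact rat. The log2 fold change was −2.14 ± 0.76, and −1.01 without rat 3 of the sensory nerve+ group on day 7. Without that rat, 2 of the epithelial genes were at an unadjusted p under 0.05 and the median was −0.59.

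Pkp1, a plakophilin of desmosomes, gave −0.90 ± 0.31 (−0.60 without rat 3 of the sensory nerve+ group on day 7), and Tp63, the master factor of stratified epithelium, gave −1.69 ± 0.68 with 0.551 to 44.5 CPM (median 18.8) in intact and 0.409 to 27.1 CPM (median 3.05) in transected rats. Krt6a, a keratin of wounded epithelium, was the member higher on all 3 days, at 1.80 ± 0.88. Of 24 genes in the list, 10 were not tested. Among them Krt4 and Krt13, keratins of the oral lining, and Loricrin, of cornified layers, were at most 0.331, 0.0575 and 0.373 CPM in any rat. Summed over the list, the level on day 3 was from 62 to 1276 CPM in intact and from 97.1 to 735 CPM in transected rats.

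Enamel and dentin genes were lower in 10 of 11, with a median of −1.46. The median was −1.33 on day 3, −2.65 on day 7 and 0.87 on day 14, and it was 0.06 on days 3 and 14 alone and −0.50 without rat 3 of the sensory nerve+ group on day 7. Dmp1, which osteocytes share with dentin-forming cells, gave 1.13 ± 0.63. It was −0.00 on day 7, and 0.64 over the 3 days without rat 3 of the sensory nerve− group on day 3.

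**Figure D4:**
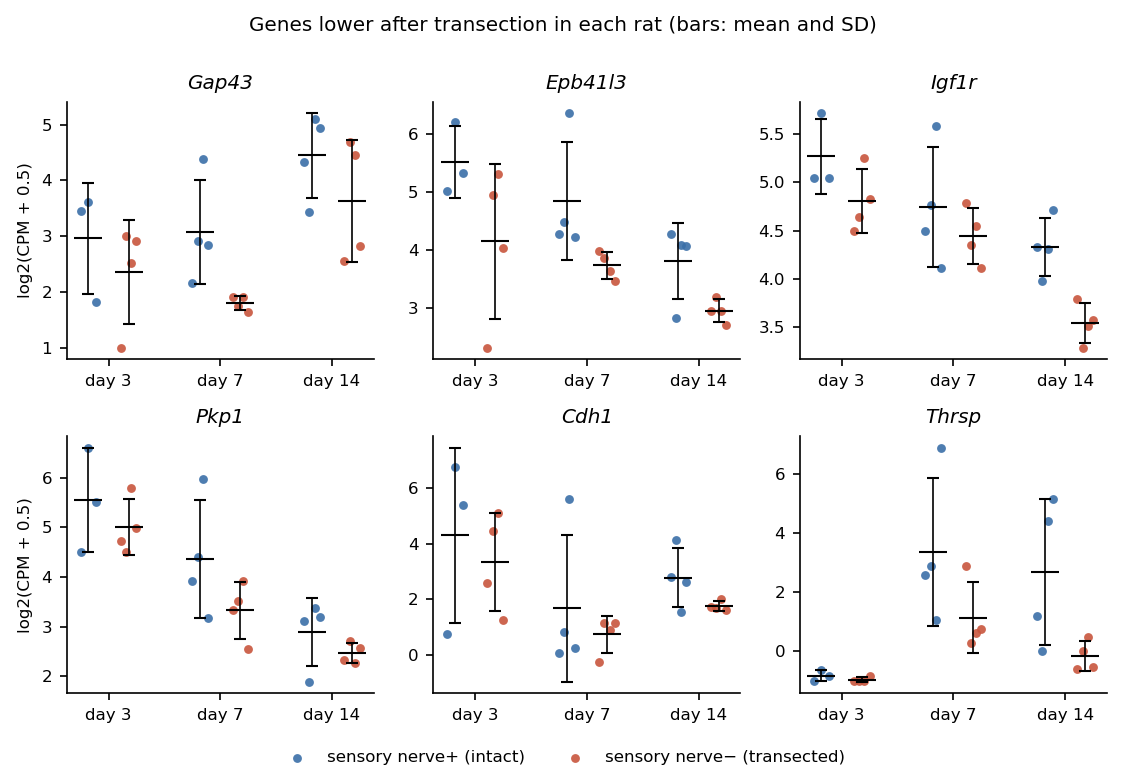
Level of 6 genes that were lower after transection in each rat by day, as log2(CPM + 0.5), with intact rats in blue and transected rats in red. Points are rats and black bars are the mean and SD of a group. The highest intact point of day 7 is rat 3 in the first 5 genes and rat 4 in Thrsp.

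Among genes of nerve tissue, Gap43 encodes a growth cone protein of regenerating axons and Schwann cells. It was 10.5, 11.8 and 3.03 CPM in intact and 1.51, 7.5, 5.27 and 7.07 CPM in transected rats of day 3. On day 7 it was 3.97, 7.03, 20.4 and 6.69 CPM against 3.26, 2.87, 3.27 and 2.64 CPM, and on day 14 it was 19.6, 10.3, 33.7 and 30.1 CPM against 5.4, 25.4, 21.4 and 6.57 CPM. The groups did not overlap on day 7 and did on days 3 and 14. Its log2 fold change was −1.01 ± 0.36 in edgeR, at an unadjusted p under 0.05. It was −0.76 without rat 3 of the sensory nerve+ group on day 7. Which cells carried this RNA was not tested. In an exact two-sided permutation test within days, the mean difference in log2(CPM + 0.5) was −0.89 (p = 0.0196, adjusted p = 0.0982 over the 6 genes tested in this way).

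Of 17 tested genes of sensory axons, 13 were lower, with a median of −0.53, and 4 were lower on all 3 days. At an unadjusted p under 0.05 there was 1 gene in each direction (5.88%). Of all genes, 3.13% were higher and 1.99% lower at that threshold. P2rx3, the ATP receptor of pain fibres, was the one that was higher, at 0.50 ± 0.23, with levels of at most 1.42 CPM. Piezo2, a touch channel that other cells also use, gave −0.88 ± 0.50 and Tubb3 gave −0.47 ± 0.24. The cell bodies of these axons lie in the trigeminal ganglion, outside the tissue, so that their RNA reaches the defect only along axons. Calca had 0 to 7 counts per rat and was not tested by edgeR. Its permutation difference was −0.14 (p = 0.136, exact). Calcb had at most 41 counts and gave −0.88 ± 1.05.

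Of the receptor of CGRP, Calcrl ranged from 20.3 to 111 CPM (median 50.9) in intact and from 18 to 103 CPM (median 43.1) in transected rats, with a log2 fold change of −0.00 ± 0.20. Ramp1 gave 0.33 ± 0.24 and Ramp3, which turns the receptor towards adrenomedullin, gave 0.35 ± 0.25. Over the 8 tested genes of ligands and receptors the median was 0.01, and −0.15 with library totals alone.

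Glial genes of the nerve varied with the day. Of 19 genes of myelinating Schwann cells, 12 were lower in the pooled fit with a median of −0.56, and 0 had 1 direction on all 3 days. All 19 were higher on day 3 (median 2.13) and all 19 were lower on day 14 (median −2.08). Rat 2 of the sensory nerve− group carried the difference of day 3. Mag, the myelin-associated glycoprotein, was at most 0.417 CPM on days 3 and 7, and on day 14 it was 18.8, 1.95, 3.45 and 9.8 CPM in intact and 0.0818, 0, 0.331 and 0.0925 CPM in transected rats, without overlap. Genes of repair Schwann cells and neurotrophic factors were lower in 15 of 19 (median −0.18), 3 of them on all 3 days. The median was 0.39, −0.55 and −1.13 by day and 0.32 on days 3 and 7 alone, and with 1 rat left out it ran from −0.54 (without rat 2 of the sensory nerve− group on day 3) to −0.05 (without rat 1 of that group on day 14). Among them was Nrg1, a growth factor for Schwann cells, at −0.91 ± 0.42. Shh, at −3.88 ± 1.76, was above 1 CPM in 3 intact and 2 transected rats only and gave −1.39 without rat 3 of the sensory nerve+ group on day 7. Of 9 genes of the perineurium and nerve sheath, 8 were lower (median −0.68), 3 of them on all 3 days. The median was −0.17, −0.66 and −0.43 by day, −0.31 on days 3 and 14 alone and −0.22 without rat 3 of the sensory nerve+ group on day 7. Gli1 was at −1.03 ± 0.55 (−0.63 without that rat) and Ntn4 at −0.79 ± 0.43.

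Bone-forming genes had no direction in common either. Of 22 osteoblast genes, 13 were higher and 9 lower (median 0.16), and 2 were higher on all 3 days. The median was 0.12 on day 3, −0.70 on day 7 with 20 of 22 lower, and 1.08 on day 14 with all 22 higher. Spp1, osteopontin, which osteoblasts share with osteoclasts and macrophages, was the member at an unadjusted p under 0.05, at 1.03 ± 0.38, with 789 to 12516 CPM (median 2933) in intact and 999 to 13572 CPM (median 8239.8) in transected rats. Bmp3, an inhibitor of bone formation that osteoblasts and osteocytes make, gave 0.97 ± 0.55. The median of 16 cartilage genes was 0.07. It was 0.17, −1.20 and 1.02 by day and −0.04 with library totals alone. Sox9, the master factor of chondrocytes, which epithelial and dental cells also use, was lower on all 3 days at −1.13 ± 0.54 (−0.59 without rat 3 of the sensory nerve+ group on day 7), and Col11a1 gave 0.35 ± 0.37.

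Among genes of fibrous matrix, 15 of 23 were lower (median −0.07). Tnc, tenascin C of wounds and of periosteum, was 1506, 2207 and 751 CPM in intact and 869, 472, 1244 and 851 CPM in transected rats of day 3, and the log2 fold change was −0.87 ± 0.30. It was −0.79, −1.64 and −0.18 by day. Loxl2, a collagen cross-linking enzyme, gave −0.34 ± 0.19. Among ligands and inhibitors of the BMP, TGF-beta and Wnt families, 19 of 28 were lower (median −0.28). Grem1, an inhibitor of BMPs, was higher at 0.79 ± 0.34 and Bmp6 was lower at −0.69 ± 0.33, each with 1 direction on all 3 days. Bmp6 was 27.2 CPM in rat 3 of the sensory nerve+ group on day 7 and at most 7.03 CPM in the others of that group, and gave −0.37 without that rat.

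Other tissues of the jaw varied with the day. Muscle genes were lower in 27 of 28 (median −0.76), yet the median was 0.76 on day 3, −0.13 on day 7 and −2.73 on day 14, and 2 genes had 1 direction. Myh4, the fast myosin, gave −2.10 ± 0.94 and Myl2, a myosin light chain, gave −2.12 ± 0.99, and both were above 0 on day 3. Myl2 gave −1.31 without rat 1 of the sensory nerve+ group on day 14 and −3.58 without rat 1 of the sensory nerve− group on day 7. Summed over the list, the level on day 14 was from 469 to 50732 CPM in intact and from 402 to 13829 CPM in transected rats. Mast cell genes were lower in 8 of 10 (median −0.70, and 0.16 without rat 2 of the sensory nerve+ group on day 14). Cpa3, their carboxypeptidase, was 137 CPM in that rat and gave −0.97 ± 0.65, and −0.19 without it. Kit, which also marks other cells, gave −1.50 ± 0.59 and was highest, at 268 CPM, in rat 3 of the sensory nerve+ group on day 7, the rat with the most Cdh1 of its day. It gave −0.78 without that rat. Endothelial genes were higher in 16 of 16, by a median of 0.15 that was −0.07 with library totals alone, and 0 were at an unadjusted p under 0.05. Tie1 gave 0.31 ± 0.17 and Cldn5 gave 0.28 ± 0.29.

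**Figure D5:**
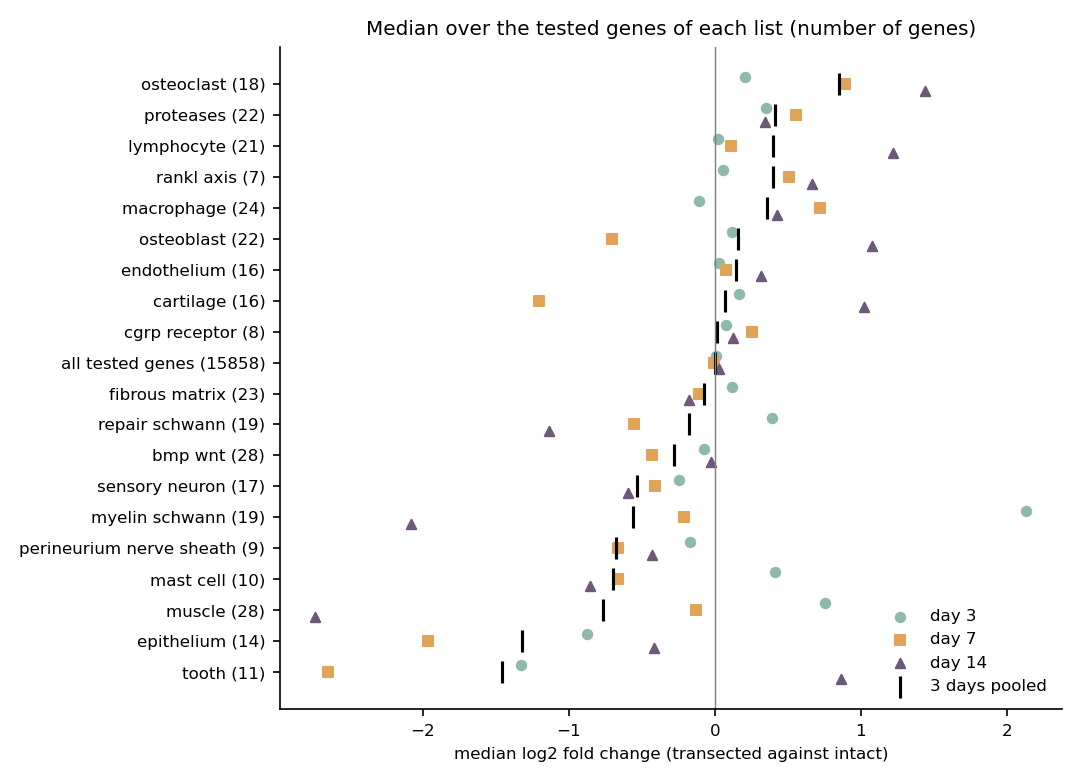
Median log2 fold change of transected against intact rats (horizontal axis) over the tested genes of each of 19 lists and of all tested genes, with the number of genes in brackets. Symbols are the medians of each day and the black mark is that of the pooled fit. The osteoclast list lies to the right on each day (0.21, 0.89 and 1.44), whereas muscle and myelinating Schwann cells lie on both sides of 0.

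The study stained the proteins of 6 of these genes in tissue, and each was tested here alone by the exact two-sided permutation test within days. The stains for Cd68 and Nos2 were of day 3, and those for Runx2 and Acp5 of days 7 and 14. CGRP and GAP43 were stained on all 3 days. The RNA values here pool the 3 days and so include days without a stain. Besides Gap43, Cd68 had the smallest p (mean difference 0.70 in log2, exact permutation p = 0.0327, adjusted p = 0.0982). Acp5 gave 0.92 (exact permutation p = 0.117), Runx2, the transcription factor of osteoblasts, gave 0.35 (exact permutation p = 0.207), and Nos2, which encodes the inducible nitric oxide synthase of activated macrophages, gave 0.02 (exact permutation p = 0.973). None passed with adjustment over the 6 genes. On days 3 and 14 alone, which lie in 1 table, Gap43 gave an exact p of 0.16 and Cd68 an exact p of 0.0865, whereas Runx2 gave a difference of 0.66 with an exact p of 0.0473 (adjusted p = 0.224 over the 6 genes). Ctsk is given above, and Ccl2, the monocyte chemokine, gave 0.02 ± 0.36, with 0.80 on day 7 and −0.73 on day 14.

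Whether the difference itself varied with the day was tested as an interaction. The smallest adjusted p was 0.998 (edgeR's quasi-likelihood test), so 0 genes were called, and 475 (3%) had an unadjusted p under 0.05. The genes with the smallest p were Cldn19, Prx, Ugt8, Otud7a and Mag. All but Otud7a belong to myelinating Schwann cells, as a claudin of their membrane folds, periaxin, the enzyme of galactocerebroside synthesis and the myelin-associated glycoprotein. Prx was 127, 11.8, 30.1 and 61.3 CPM in intact and 3.68, 9.92, 8.83 and 6.38 CPM in transected rats of day 14. For day 14 taken alone, 1822 genes (11.5%) were at an unadjusted p under 0.05, against 415 (2.62%) on day 7 and 211 (1.33%) on day 3, and 0 passed the adjusted threshold on any day.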

How the data were processed

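RNA of 23 rat samples of periodontal healing tissue was sequenced on the DNBSEQ platform. The authors aligned the reads with HISAT to mRatBN7.2 (the submitters' processing notes also name Bowtie2) and deposited 2 tables of expected counts, which need not be whole since a read can be divided among genes. The counting program is not given in the sources used here. Of the values, 37.0% were whole within 1e-09, and all were rounded. The macrophage cultures of the series were not used here.

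Counts were joined on the gene symbol (20022 genes) and grouped by the sample titles, which also gave the day. Library sizes were 14854598 to 18742423 counts. Genes were filtered by filterByExpr over the 6 groups and scaled by TMM, and transection was tested with edgeR 4.0.16 by its quasi-likelihood F test (log2 fold change and SE derived from F) with day as a factor, at a Benjamini-Hochberg adjusted p under 0.05. Day-wise values and the interaction came from a model of the 6 group means. Single genes used log2(CPM + 0.5). The alternatives were RLE size factors, library totals, 2 other filters, DESeq2 1.42.0, limma 3.58.1 (voom with sample weights), a robust prior, equal weight of days, the replicate number as a block, pairs of days and each rat left out. The fit was tested on simulated counts, drawn for each gene independently and thus without tissue differences shared by many genes. Of 200 genes changed by 1 on the log2 scale on every day, 123 (61.5%) passed the adjusted threshold. Of 200 changed by 2, 173 (86.5%) passed it. R 4.3.3, Python 3.11.15, numpy 2.4.6, pandas 2.3.3 and matplotlib 3.10.9 were used.

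The members, 36 gene lists and tests were chosen with earlier results of these data known. Named were the top 12 genes by p, higher and lower separately, among those with 1 direction on all 3 days and a named symbol, the 2 with the smallest p in each of 19 described lists, the genes of 6 stained proteins with Calcb, Ctsk and Ccl2, and the 5 with the smallest interaction p. Other genes named are members of a list, chosen after their values were seen. Each rat was counted as 1 sample. The floor was 3 counts. Positions are of promoters only, from RefSeq (GRCr8), since no genome of mRatBN7.2 was used here. The authors' own fold changes were not used. A named higher gene and a gene of the enamel and dentin list are not reported here.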

Additional observations from a re-analysis of the deposited data

Results flagged for a closer look

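A sample is named here where it lay far from the others of its group by Dixon's test, which chance alone passes in about 1 in 20 groups. Of 342 groups of 4 rats tested over the named genes, 26 did so.

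Rat 3 of the sensory nerve+ group on day 7 had 8 of these. It was the highest of its group for the epithelial genes Cdh1 (48.4 CPM, others at most 1.25 CPM) and Grhl2 (3.68 CPM, others at most 0.208 CPM), for Shh (28.4 CPM, others at most 0.104 CPM), Sox9 (53 CPM, others at most 6.69 CPM), Epb41l3 (80.9 CPM, others at most 21.9 CPM), Kcnd2 (10.3 CPM, others at most 0.254 CPM) and Serpinb12 (0.214 CPM, others at 0), and the lowest for Cd8b (1.8 CPM, others at least 8.3 CPM).

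Rat 2 of the sensory nerve+ group on day 14 was the lowest for Epb41l3 (6.66 CPM), Pkp1 (3.2 CPM) and Ntn4 (1.15 CPM) and the highest for Ramp3 (21 CPM).

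Rat 1 of the sensory nerve− group on day 7 was the lowest for Runx2 (24.5 CPM, others at least 74.3 CPM), Cd86 (5.12 CPM) and Bmp3 (0.169 CPM) and the highest for Fam13a (33.1 CPM) and Myl2 (17.3 CPM).

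In the sensory nerve− group on day 3, rat 3 was the highest for Kcnd2 (0.793 CPM), Serpinb12 (0.559 CPM) and Car7 (0.14 CPM), and rat 2 was the highest for Cldn19 (9.21 CPM, others at most 0.28 CPM). Single values were those of Cdh20 in rat 4 of the sensory nerve+ group on day 7 (0.593 CPM, lowest) and in rat 3 of the sensory nerve− group on day 14 (0.994 CPM, highest), of Ntn4 in rat 3 of the sensory nerve− group on day 14 (6.29 CPM, highest), of Cd86 in rat 1 of that group (10.4 CPM, highest) and of Ugt8 in rat 3 of the sensory nerve− group on day 7 (0.147 CPM, lowest).

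Otud7a, a deubiquitinase gene, separated the groups in opposite directions on 2 days. It was 0.785, 1.1 and 1.18 CPM in intact and 0.58, 0.57, 0.513 and 0.535 CPM in transected rats of day 3, and 1.42, 0.901, 0.862 and 1.26 CPM against 2.46, 2.09, 3.2 and 2.04 CPM on day 14. The interaction with day had an unadjusted p of 0.0011 and an adjusted p of 0.998 in edgeR.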

How the results depend on the processing

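No gene was called higher under any alternative, and DESeq2 called 1 gene lower (Thrsp). The 811 genes at an unadjusted p under 0.05 were 3630 with limma-voom (1752 higher, 1878 lower), 450 on days 3 and 14 alone (232 higher) and 286 on days 3 and 7 alone (94 higher, 192 lower). Library totals alone gave 54 higher and 538 lower, and the stricter filter gave 202 lower. With 1 rat left out the count ran from 442 to 1838 (244 to 933 higher, 178 to 905 lower), and genes without overlap on all 3 days numbered 0 or 1. Single values changed sign as follows. Days 3 and 7 alone gave −0.011 for Col11a1, 0.14 for Prx, −0.72 for Nos2, 1.70 for Cldn19, 2.10 for Ugt8 and −0.45 for Otud7a. Library totals gave −0.075 for Ccl2 and −0.11 for Otud7a, days 3 and 14 alone gave −0.41 for Ccl2, and equal weight of days gave 0.73 for Ugt8. With 1 rat left out Nos2 ran from −0.60 to 0.74, Ccl2 from −0.13 to 0.20 and Ugt8 from −1.09 to 0.0057. The exact permutation p was 0.115 for Cd68 and 0.845 for Nos2 with library totals, and on days 3 and 14 alone 0.160 for Gap43, 0.0865 for Cd68, 0.949 for Nos2 and 0.0473 for Runx2. The cause was not tested. With the replicate number as a block, 0 genes were called, 607 were at an unadjusted p under 0.05 (317 higher, 290 lower), 5 osteoclast genes were, and Nos2 gave −0.14. The deviations of 11 same-numbered pairs correlated from −0.32 to 0.42 (median 0.0768), 5 of them above 0.1. Those of 33 other pairs had a median of −0.0269, 10 of them above 0.1. With 3 or 4 rats per group, these values cannot show whether the numbers pair the rats. P-values set a difference against the spread between rats. In the pooled fit that spread also holds differences of the transection effect between days. Calca, with at most 7 counts in a rat, was too low for the edgeR fit.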

Other observations

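Tfrc, the transferrin receptor, was higher on all 3 days at 0.85 ± 0.31, whereas the list of red cell genes that holds it had a median of 0.17 with −0.75, −0.61 and 1.41 by day. Of 11 osteocyte genes, 7 were higher (median 0.38, with 0.04, 0.08 and 0.56 by day), with Fam20c, a kinase of secreted matrix proteins, at 0.50 ± 0.24. A pair of muscle atrophy regulators was lower on all 3 days, Fbxo32 at −0.69 ± 0.31 and Hdac4 at −0.28 ± 0.13, whereas 2 of the 15 genes of their list had 1 direction and its median was 1.31, −0.08 and −2.92 by day (−0.65 pooled, and 0.35 on days 3 and 7 alone).

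Inflammatory genes had medians near 0. Of 18 interleukin and TNF genes, 10 were higher (median 0.13, and −0.03 with library totals), with Il11 at −0.69 ± 0.32. The median was 0.06 for 25 chemokines (−0.06 with library totals), with Ccl4 at 0.75 ± 0.34, 0.05 for 33 interferon-stimulated genes (−0.10 with library totals), 0.12 for 19 complement genes and −0.13 for 18 neutrophil genes. Of 27 cell cycle genes, 27 were higher on day 3 and 27 were lower on day 14 (medians 0.36 and −0.63). Of 37 nuclear-encoded oxidative phosphorylation genes, 35 were higher on day 3 and 36 lower on day 14 (medians 0.10 and −0.43). The median was 0.05 for ribosomal proteins (−0.09 with library totals), −0.07 for glycolysis, −0.05 for heat shock proteins, and 0.00 for immediate early genes. Myogenic regulators had medians of 1.31, −0.15 and −3.04 by day, with 14 of 15 higher on day 3 and 15 of 15 lower on day 14 (−0.56 pooled, and 0.35 on days 3 and 7 alone). Of the salivary gland list only Cst3, which many cells use, was tested (0.56 ± 0.21).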
